A study of Mus musculus with 6 samples.

Results

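The CCN genes and a set of YAP/TAZ target and Hippo pathway genes were followed in sorted mouse lung cells after late-gestation blockade of hedgehog ligands. The 10 genes were taken by symbol from the 48397 gene symbols counted: the CCN genes Cyr61 (now Ccn1), Ctgf (Ccn2), Nov (Ccn3), Wisp1 (Ccn4) and Wisp2 (Ccn5), and Ankrd1, Axl, Lats2, Ajuba and Tead1. All 10 passed the filter on low counts and were among the 16198 genes tested. Pregnant dams with 1 EGFP reporter allele of Pdgfra, which marks much of the lung mesenchyme, received an intraperitoneal injection at E18.5 of the anti-HH antibody 5E1, which binds hedgehog ligands, or of control IgG. At postnatal day 8, live EGFP-positive cells were sorted from the lungs of PdgfraEGFP/+ pups, so every library of both groups comes from pups carrying 1 reporter allele. There were 3 IgG and 3 5E1 libraries. Whether each library stands for a pup, a pool or a litter is not stated in the labels, and p-values here reflect only how far these 6 samples vary, which may be technical variation. The dam, not the pup, was injected, and sample numbers in the titles run through IgG before 5E1, so if they are a handling order, it and the antibody cannot be told apart.

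CCN proteins are secreted matricellular proteins built from a shared set of modules. They bind integrins and heparan sulphate proteoglycans and modulate growth factor signalling, and Wisp2 lacks the C-terminal module of its relatives. In the Hippo pathway, MST and LATS kinases phosphorylate the coactivators YAP and TAZ and keep them out of the nucleus. In the nucleus YAP and TAZ act through TEAD transcription factors on genes such as Cyr61, Ctgf and Ankrd1, and stretch and stiff matrix favour this state. Cyr61 and Ctgf are also immediate early genes and respond to SRF and TGF-beta.

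Promoter sequences are shown for members that carry the TEAD core letters GGAATG before their start. RefSeq promoters on GRCm38.p6 matched 5 of the 10 members (Cyr61, Ankrd1, Axl, Lats2 and Ajuba), and Ctgf, Nov, Wisp1, Wisp2 and Tead1 had no entry. In the 250 bases before each start, both strands were searched for GGAATG, for the AP-1 letters TGACTCA, for the GLI core ACCACCC and for the CArG box of SRF, and the gene strand for the TATA box TATAAA. The TEAD core was found in 12.6% of 32817 promoter windows of this length, and in the windows of Cyr61, Axl, Ankrd1 and Ajuba. Capitals in the following lines mark it or its complement, 5′ to 3′ on the gene strand. The windows are chr3:145649986-145650235 for Cyr61, chr7:25788734-25788983 for Axl and chr14:54577662-54577911 for Ajuba, each gene on the minus strand.
Cyr61: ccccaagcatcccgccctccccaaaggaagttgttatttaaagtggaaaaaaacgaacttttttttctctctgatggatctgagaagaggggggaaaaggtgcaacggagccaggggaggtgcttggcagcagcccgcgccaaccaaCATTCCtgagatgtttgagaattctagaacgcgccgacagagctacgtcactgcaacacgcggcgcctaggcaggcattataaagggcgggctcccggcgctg
Axl: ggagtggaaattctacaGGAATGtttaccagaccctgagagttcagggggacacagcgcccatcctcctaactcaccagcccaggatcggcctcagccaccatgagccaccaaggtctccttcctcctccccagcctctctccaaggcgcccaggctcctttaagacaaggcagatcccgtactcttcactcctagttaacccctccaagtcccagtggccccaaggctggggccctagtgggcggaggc
Ajuba: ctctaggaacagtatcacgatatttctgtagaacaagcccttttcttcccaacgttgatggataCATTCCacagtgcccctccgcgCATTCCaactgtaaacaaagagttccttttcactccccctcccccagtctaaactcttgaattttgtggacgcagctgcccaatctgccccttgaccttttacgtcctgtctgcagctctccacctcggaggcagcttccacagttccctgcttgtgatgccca
The match began at position -103 from the start in Cyr61, at -233 in Axl and at -186 and -164 in Ajuba. Ankrd1 held matches at -210 and -123, in a window that an annotated exon covers and that is not printed. No match to GGAATG was found in either window of Lats2, of which the second held the GLI core. Cyr61 also had a TATA box at -25. None of the 5 members held the AP-1 letters or a CArG box, which 4.46% and 1.47% of windows did. A match is a description of letters, and its absence says only that these letters are not in this window.

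In 5E1 libraries, Nov and Axl rose, Ajuba and Tead1 fell, and 6 members did not pass the test. The 4 called members are 40% of the 10, beside 23.2% of all genes tested in this comparison. Calls rest on edgeR's quasi-likelihood test with Benjamini-Hochberg adjustment over all genes, at an adjusted p under 0.05. The groups of libraries did not overlap for 6 members, beside 42.2% of all genes. Levels are given as CPM, counts per 1e6 reads on TMM-scaled library sizes (edgeR's default scaling). The members' median log2 fold change was 0.31, and that of all genes tested was 0.00087. Scaling by library size alone moved the median of all genes by -0.14 and the share of calls that were higher from 52.3% to 28.6%. Under it Nov and Axl still rose, by log2 fold changes of 0.91 and 0.47, and Ajuba and Tead1 fell. In bulk RNA, fewer cells of a type and less RNA per cell cannot be told apart.

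**Figure D1:**
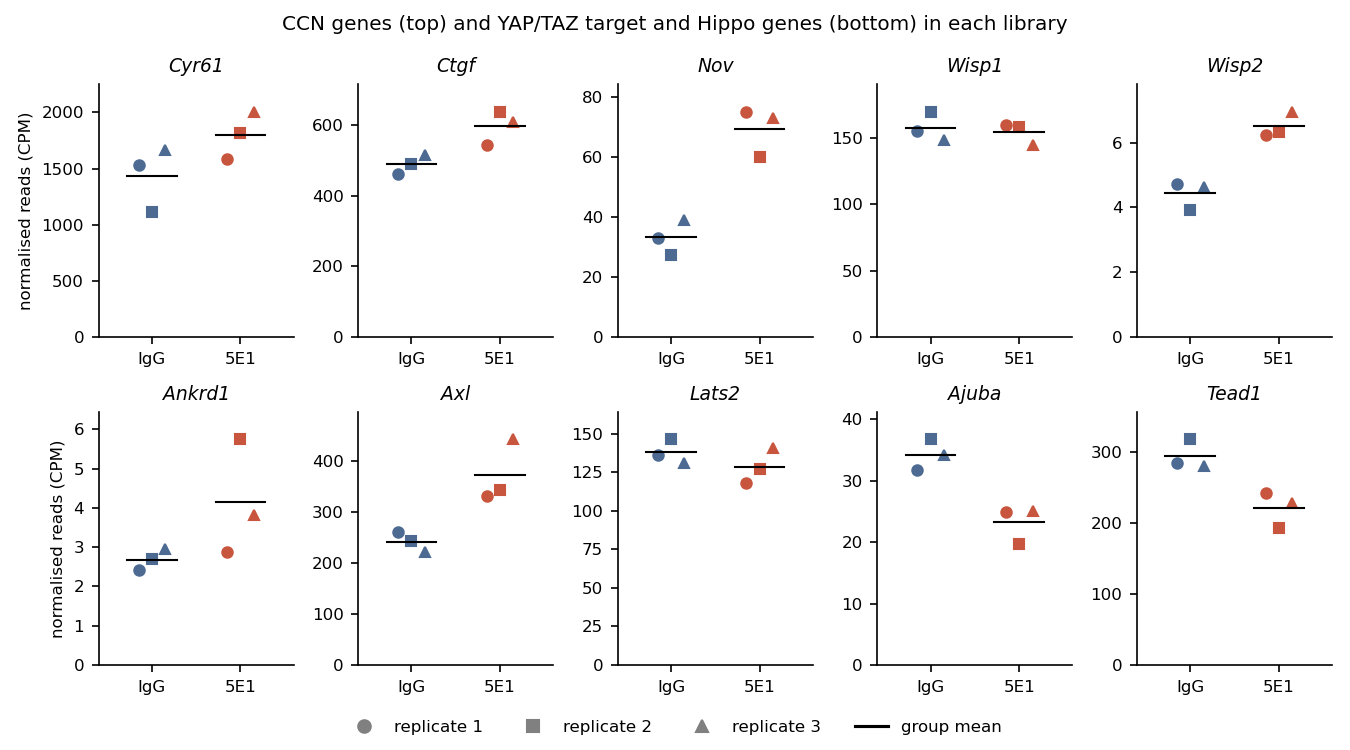
Normalised reads (CPM, axes from 0) of the 10 genes in each of the 6 libraries, with the replicate number as the marker and the group mean as a line. All 5E1 libraries of Nov and Axl lie above the IgG libraries, and all those of Ajuba and Tead1 lie below them.

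Nov, which encodes CCN3, a CCN protein often reported to act against CCN2, changed most among the called members. It lies on chromosome 15 (54745702 to 54754039, GRCm38, plus strand). Its level was 33.2, 27.5 and 39.1 CPM in IgG replicates 1 to 3 and 75.3, 60.2 and 73.1 CPM in 5E1 replicates 1 to 3. The lowest 5E1 library stood above the highest IgG library by more than the range within either group. The mean rose from 33.3 ± 5.80 to 69.5 ± 8.12 CPM (SD, n = 3 each), 2.09-fold, with a log2 fold change of 1.06 (SE 0.13) and an edgeR adjusted p of 0.000532. It passed in all 14 alternative settings, with log2 fold changes of 0.91 to 1.19.

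Cyr61, which encodes CCN1, is the most abundant CCN gene here and lies on chromosome 3 (145646976 to 145649981, minus strand). Its level was 1534, 1109 and 1661 CPM in the IgG libraries and 1580.2, 1819 and 2006 CPM in the 5E1 libraries. The groups overlap, since IgG replicate 3 stood above 5E1 replicate 1, and IgG replicate 2 was the lowest library. The means were 1435 ± 289 and 1802 ± 214 CPM (SD, n = 3 each), the log2 fold change was 0.33 with a 95% interval of -0.02 to 0.68, and the adjusted p was 0.164. Without IgG replicate 2 the log2 fold change was 0.17 (adjusted p 0.476). With no low-count filter it passed at 0.31 (adjusted p 0.0468).

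Ctgf, which encodes CCN2, a matrix-associated protein induced by TGF-beta in fibroblasts, lies on chromosome 10 (24595442 to 24598683, plus strand). It measured 462, 490 and 514 CPM in IgG and 542, 638 and 609 CPM in 5E1. Every 5E1 library was above every IgG library, by a small margin at the nearest pair. The log2 fold change was 0.29 (95% interval 0.06 to 0.51) and the adjusted p was 0.0644, which misses the threshold. The call was made by DESeq2 (0.0228), under a filter at 5 CPM in 3 libraries (0.0383) and without 5E1 replicate 1 (0.0409). Its exons share 665 bases with the antisense gene Gm15270, which had 7 to 21 reads per library against 8749 to 21434 for Ctgf.

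Wisp2, which encodes CCN5, is a low gene on chromosome 2 (163820861 to 163833146, plus strand). Its level was 4.73, 3.92 and 4.65 CPM in IgG and 6.25, 6.34 and 6.96 CPM in 5E1, from 70 to 213 reads per library. The groups do not overlap. The log2 fold change of 0.55 (SE 0.19, 95% interval 0.14 to 0.96) had an adjusted p of 0.0541 and did not pass. With the filter at 5 CPM in 3 libraries the adjusted p was 0.0364, with 10990 genes tested in place of 16198.

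Wisp1, which encodes CCN4 and is a Wnt-induced gene, lies on chromosome 15 (66891320 to 66923201, plus strand). It measured 155, 170 and 148 CPM in IgG and 160, 158 and 144 CPM in 5E1. The libraries of the groups lay among each other. The log2 fold change was -0.03, with a 95% interval of -0.23 to 0.16 and an adjusted p of 0.824. Its sign was positive without IgG replicate 2 (0.018) and without 5E1 replicate 3 (0.0077). The remaining CCN gene, Wisp3 (Ccn6), had 1 to 6 reads per library and was not tested.

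Axl, which encodes a receptor tyrosine kinase for the ligand GAS6 and is a YAP/TAZ target in several cell types, lies on chromosome 7 (25757273 to 25788705, minus strand). Its level was 259, 243 and 222 CPM in IgG and 329.8, 343 and 441 CPM in 5E1. All 5E1 libraries were above the IgG libraries, and 5E1 replicate 3 was the highest. The mean rose from 241 ± 18.7 to 371.5 ± 61.0 CPM (SD, n = 3 each), 1.54-fold, with a log2 fold change of 0.62 (SE 0.12) and an adjusted p of 0.00491. It passed in all 14 alternatives, with adjusted p up to 0.0296. The 8 leukocyte markers summed to 350.5, 387 and 228 CPM in the 5E1 libraries and to 102, 116 and 118 CPM in IgG. Every 5E1 sum was above every IgG sum, and 5E1 replicate 3, the highest for Axl, had the lowest of the 5E1 sums. Of the 8 markers 6 rose, beside 12.1% of all genes tested. The largest by fold were the neutrophil genes S100a8 (3.03 ± 0.169 to 49.8 ± 13.6 CPM) and S100a9 (6.21 ± 0.790 to 74.3 ± 16.3 CPM). The others that rose were Ptprc (9.45 and 19.5 CPM), Cd52 (1.91 and 7.90 CPM), Laptm5 (10.5 and 22.5 CPM) and Coro1a (6.71 and 16.7 CPM). Macrophages can express Axl. Of the list's genes with high macrophage levels, neither Cd68 (9.91 and 11.8 CPM) nor Lyz2 (64.3 and 119 CPM, adjusted p 0.0662) was called. For Lyz2 every 5E1 library was above every IgG library, and for Cd68 the groups overlapped. The part of leukocytes in the result was not tested.

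Around Axl, 2 of 4 genes of its ligands and related receptors rose and none fell, beside 12.1% and 11.1% of all genes tested. Gas6, the gene of the main AXL ligand, rose from 169 ± 20.2 to 214 ± 10.3 CPM (0.34 on the log2 scale, adjusted p 0.0364). Mertk, a related receptor gene used by macrophages for clearing dead cells, rose from 21.6 ± 1.06 to 47.5 ± 8.03 CPM (1.14 on the log2 scale, adjusted p 0.000196). Pros1, which encodes the ligand protein S, and Tyro3, the remaining receptor of the family, had log2 fold changes of 0.12 and -0.21 and did not pass. Gas6 was not called with library size alone, nor on leaving out IgG replicate 1, IgG replicate 2 or 5E1 replicate 3. With library size alone 1 of the 4 genes fell.

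Ankrd1, which encodes an ankyrin repeat protein and is among the most used YAP/TAZ readouts, was barely expressed. It lies on chromosome 19 (36111961 to 36120099, minus strand). Its level was 2.42, 2.69 and 2.94 CPM in IgG and 2.88, 5.75 and 3.83 CPM in 5E1, from 48 to 193 reads per library. The groups overlap, and 5E1 replicate 2 was the highest. The log2 fold change of 0.64 (95% interval 0.02 to 1.27) had an adjusted p of 0.127 and was 0.33 without 5E1 replicate 2. In that same library the endothelial, epithelial and mesothelial markers were also highest, at summed levels of 272, 443 and 248 CPM. The part of those cells in its value was not tested.

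Ajuba, which encodes a LIM-domain scaffold that binds LATS kinases and restrains them, lies on chromosome 14 (54567472 to 54577558, minus strand). Its level was 31.8, 36.7 and 34.2 CPM in IgG and 24.8, 19.8 and 25.04 CPM in 5E1. All 5E1 libraries were below the IgG libraries. The mean fell from 34.2 ± 2.46 to 23.2 ± 2.98 CPM (SD, n = 3 each), or -0.56 on the log2 scale (SE 0.12), with an adjusted p of 0.00686. It passed in all 14 alternatives, with log2 fold changes of -0.71 to -0.46.

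Tead1, which encodes a DNA-binding partner of YAP and TAZ, lies on chromosome 7 (112679318 to 112906807, plus strand). It measured 285, 317 and 280.02 CPM in IgG and 242, 192 and 228 CPM in 5E1. The groups do not overlap, and 5E1 replicate 2 was the lowest. The mean fell from 294 ± 20.3 to 221 ± 25.5 CPM (SD, n = 3 each), or -0.41 on the log2 scale (SE 0.11), with an adjusted p of 0.0175. Without IgG replicate 2 the log2 fold change was -0.36 and the adjusted p was 0.0672, so that call ended.

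Lats2, which encodes the kinase that phosphorylates YAP and is itself a YAP/TAZ target, lies on chromosome 14 (57689662 to 57758388, minus strand). Its level was 136, 146 and 131 CPM in IgG and 118, 127 and 141 CPM in 5E1. The groups overlap. The log2 fold change was -0.10, with a 95% interval of -0.30 to 0.10 and an adjusted p of 0.458. In GENCODE M21, 2955 of its 6971 exon bases are shared with Gm49361, a protein-coding gene model on the same strand whose symbol is not among those counted.

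**Figure D2:**
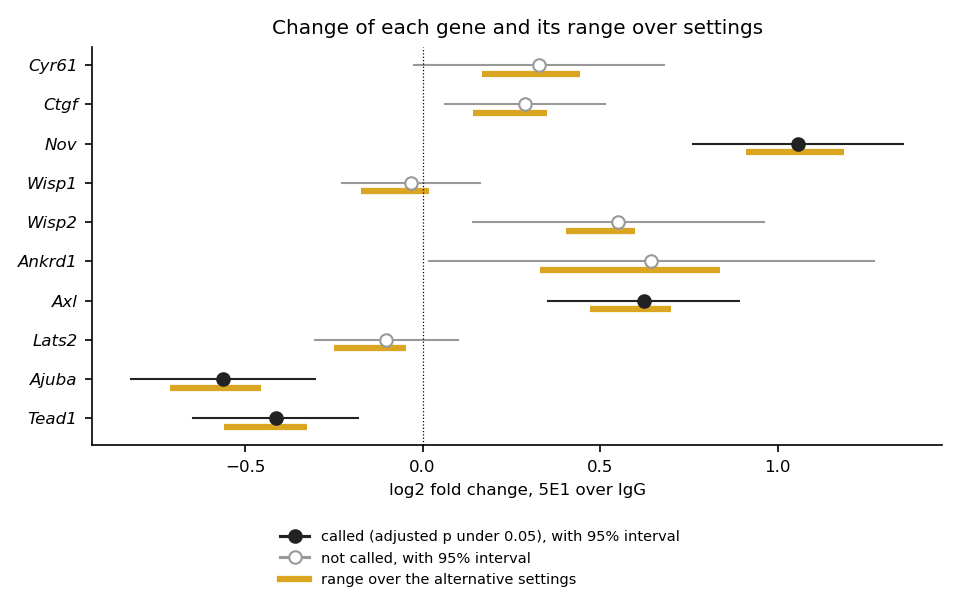
Log2 fold change of each of the 10 genes, 5E1 over IgG, with its 95% interval (line) and the range of the value over the alternative settings (bar). Filled points passed the test: Nov and Axl lie to the right of 0, Ajuba and Tead1 to the left, and only the bar of Wisp1 crosses 0.

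Per length, the members ran from abundant to scarce. In IgG libraries the levels per kb of merged exon were 711 ± 143 CPM for Cyr61, 171 ± 9.10 for Ctgf and 47.95 ± 3.72 for Axl (SD, n = 3). Wisp1 (28.3 ± 1.99), Tead1 (21.7 ± 1.49), Lats2 (19.8 ± 1.103), Nov (11.6 ± 2.02), Ajuba (9.39 ± 0.675), Wisp2 (2.30 ± 0.232) and Ankrd1 (0.929 ± 0.0904) followed on the same scale. Libraries of neighbours in that order overlapped for Tead1 with Lats2 and for Nov with Ajuba, and for no other neighbouring pair. In 5E1 libraries the order was the same down to Wisp1, and Nov (24.2 ± 2.83) came next, overlapping Wisp1 (27.7 ± 1.50). Lats2 (18.4 ± 1.64) and Tead1 (16.3 ± 1.88) followed, their libraries also overlapping. Exon length was taken over all annotated transcripts, so levels of genes with long or rarely used exons, such as Tead1 with 13570 bases, depend on the annotation.

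**Figure D3:**
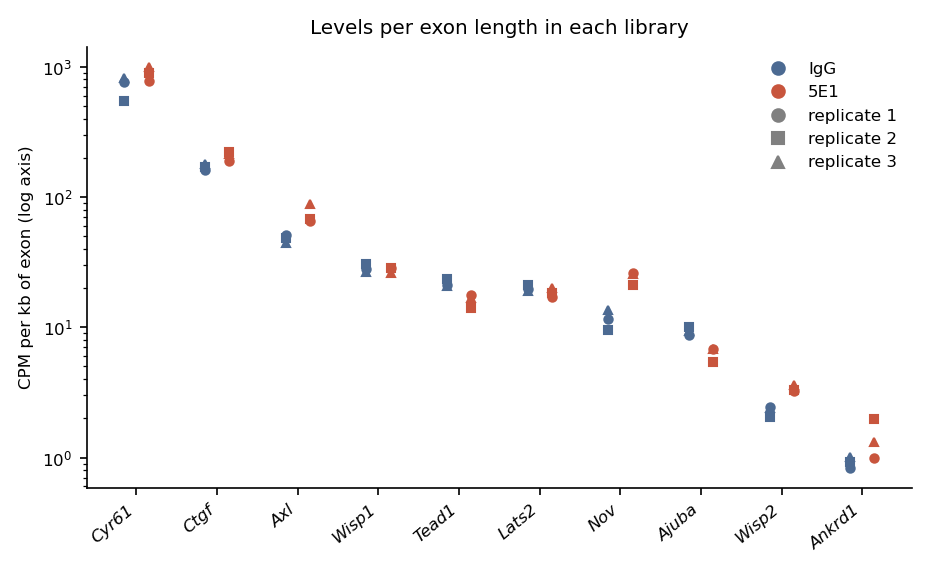
Level of each gene per kb of merged exon (CPM per kb, log axis) in each library, ordered by the IgG mean. Cyr61 and Ctgf stand above the other genes in every library, and Nov moves from beside Ajuba in IgG to beside Wisp1 in 5E1.

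Within the CCN genes, Cyr61 made up 76.5% ± 3.91 of the summed per-length level in IgG and 77.1% ± 1.47 in 5E1 (SD, n = 3 each). Ctgf made up 18.8% ± 3.16 and 18.1% ± 1.07. Both shares differed between groups by less than the spread between replicates. Nov took 1.20%, 1.26% and 1.30% in the IgG libraries and 2.55%, 1.78% and 2.02% in the 5E1 libraries, with no overlap. The small share of Wisp2, 0.251% ± 0.0184 in IgG and 0.294% ± 0.0187 in 5E1, did not overlap between groups either. Wisp1 took 3.14% ± 0.759 and 2.42% ± 0.364, with overlapping libraries.

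The library order of Cyr61 was read beside 13 immediate early and dissociation response genes. The list holds the heat shock genes Hspa1a and Hspa1b beside immediate early genes, which rise within minutes of stress or serum. Of the 13 genes, 12 rose in 5E1, beside 12.1% of all genes tested, and none was lower. Their median was 0.90 on the log2 scale. For all 13, every 5E1 library was above every IgG library, as for 20.8% of all genes tested. Dusp1, a MAP kinase phosphatase gene, rose from 366 ± 71.8 to 832 ± 113 CPM (1.19 on the log2 scale, adjusted p 0.00069), and Fos, an AP-1 subunit gene, from 1249 ± 285 to 2732 ± 438 CPM (adjusted p 0.0020). The heat shock genes Hspa1a (0.78) and Hspa1b (0.92) rose too. Summed over the 13 genes, the level was 8888, 5870.4 and 8174 CPM in IgG and 12122, 14943 and 15003 CPM in 5E1. IgG replicate 2 was the lowest library for all 13, and it was also the lowest for Cyr61, Nov and Wisp2. For Wisp1, Lats2, Ajuba and Tead1 the same library was the highest of the 6. Among the 5E1 libraries, replicate 1 was the lowest for 11 of the 13 and for Cyr61, Ctgf, Ankrd1, Axl, Wisp2 and Lats2. The part of dissociation in the members' values was not tested. Over the alternatives 8 to 13 of the 13 rose.

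**Figure D4:**
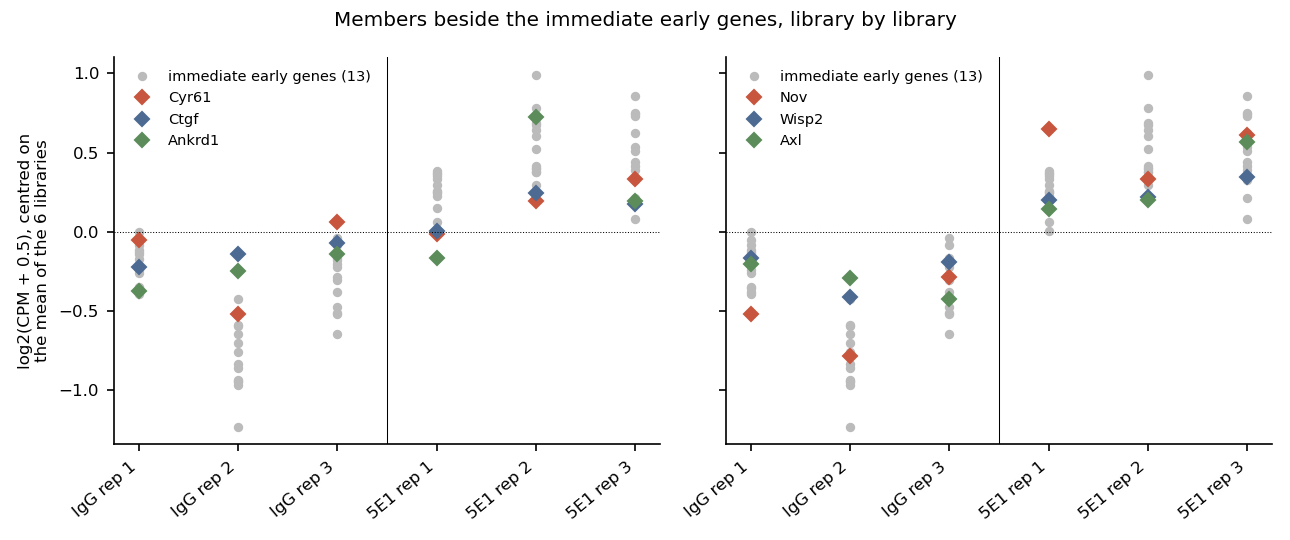
Level in each library on a log2(CPM + 0.5) scale, centred on the mean of the 6 libraries. Diamonds are members, 3 per panel. Grey points are the 13 immediate early and dissociation response genes, the same in both panels. IgG replicate 2 holds the lowest grey points, where Cyr61 and Nov are lowest too, while Ctgf and Ankrd1 are lowest in IgG replicate 1.

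Upstream of YAP and TAZ, calls were about as frequent as over all genes. Of 16 genes of Hippo kinases, their scaffolds and activators, 2 rose and 1 fell, beside 12.1% and 11.1% of all genes tested. The list's median was 0.02 on the log2 scale. Stk4, which encodes the kinase MST1, fell from 58.9 ± 1.47 to 46.5 ± 2.91 CPM (-0.34 on the log2 scale, adjusted p 0.0139). Frmd6, a FERM-domain gene (0.33, adjusted p 0.0374), and Fat4, an atypical cadherin gene (0.50, adjusted p 0.0386), rose. Both increases were lost with library size alone, with a replicate block and on leaving out any IgG library or 5E1 replicate 3. That of Fat4 was also lost without 5E1 replicate 1. The call of Stk4 was lost without IgG replicate 1 and without 5E1 replicate 3. None of 6 genes of LATS and YAP binding adaptors passed, with a median of -0.13, and up to 1 rose and 2 fell over the alternatives.

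Among 7 tested genes of YAP, TAZ, TEAD and VGLL proteins apart from Tead1, 1 rose and 2 fell. The shares over all genes tested were 12.1% and 11.1%. Tead2, a second TEAD factor gene, fell from 126 ± 9.50 to 97.5 ± 8.81 CPM (-0.37 on the log2 scale, adjusted p 0.0168). Vgll4, which encodes a cofactor that competes with YAP for TEAD, fell by 0.32 on the log2 scale (adjusted p 0.0212), and Vgll3, another TEAD cofactor gene, rose by 0.49 (adjusted p 0.0144). All 3 calls were lost without IgG replicate 2 and without 5E1 replicate 3. That of Tead2 was also lost without IgG replicate 3, those of Vgll4 and Vgll3 without IgG replicate 1, and that of Vgll3 with library size alone. Neither coactivator gene was called. Both are named with their values known: Yap1 measured 152 ± 8.36 and 159 ± 5.89 CPM (log2 fold change 0.07) and Wwtr1, which encodes TAZ, 275 ± 9.17 and 313 ± 6.26 CPM (0.19, adjusted p 0.136). The libraries of Wwtr1 did not overlap between groups.

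Other commonly used YAP/TAZ target genes split in direction. Of 16, 5 rose and 3 fell, beside 12.1% and 11.1% of all genes tested. The median log2 fold change of the list was 0.03. Igfbp3, which encodes a binding protein for insulin-like growth factors, rose from 77.6 ± 18.4 to 508 ± 221 CPM (2.71 on the log2 scale, adjusted p 0.00476). Gadd45b, a stress response gene, rose from 174 ± 35.7 to 358 ± 24.4 CPM (1.04, adjusted p 0.000845). Tgfb2, a TGF-beta ligand gene, fell from 383 ± 46.5 to 224 ± 24.1 CPM (-0.77, adjusted p 0.00115), and Foxf2, a forkhead gene that is also a hedgehog target, fell from 179 ± 13.0 to 104 ± 16.0 CPM (-0.79, adjusted p 0.00104). The remaining calls, named after their values were seen, were F3 (1.61), Nuak2 (1.03) and Ccdc80 (0.66), which rose, and Dock5 (-0.52), which fell. Over the alternatives 3 to 6 rose and 2 to 4 fell, the lowest count of increases being without IgG replicate 2, where F3 and Nuak2 were not called. Igfbp3, Gadd45b, Tgfb2, Foxf2 and Ccdc80 passed in all 14.

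Receptors of CCN proteins gave 2 increases and 1 fall among 10 genes, beside 12.1% and 11.1% of all genes tested. Itgam and Itgb2, which encode the leukocyte integrin of CCN1, rose by log2 fold changes of 1.63 and 1.20 from 3.34 ± 0.231 and 4.60 ± 1.84 CPM in IgG. They moved with the leukocyte markers, of which 6 of 8 rose and none is at 0. Itgav, the alpha v integrin gene, fell from 256 ± 27.3 to 195 ± 15.1 CPM (-0.40, adjusted p 0.0184), a call that ended without IgG replicate 2. The call of Itgb2 also ended without IgG replicate 2. Over the alternatives 1 to 5 of the 10 rose, with 5 without 5E1 replicate 2 and with no low-count filter.

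SRF and its MRTF coactivators also act on CCN genes. A list of SRF, MRTF and actin cytoskeleton target genes gave 5 falls and no increase among 12. Beside these, 11.1% of all genes tested fell and 12.1% rose. The list's median was -0.30. Actn1, an actin crosslinker gene, fell from 438 ± 10.2 to 209 ± 31.6 CPM (-1.07 on the log2 scale, adjusted p 0.000169), and Tpm1, a tropomyosin gene, from 960.3 ± 81.2 to 578 ± 37.4 CPM (-0.73, adjusted p 0.00104). Flna (-0.40) and Myh9 (-0.42) also fell, as did Vcl (-0.28), named after its value was seen. Actn1 and Tpm1 passed in all 14 alternatives. Of the 12, 2 or 3 fell when any 1 library was left out, and 8 with library size alone. Of 8 pericyte and smooth muscle markers 3 fell (Myh11, Kcnk3 and Cnn1), beside 11.1% of all genes tested, with a list median of -0.03. Their summed level was 1519 to 1654 CPM in IgG and 959 to 1214 CPM in 5E1, and most of that difference lay in Myh11, a smooth muscle myosin gene (853 ± 52.9 and 439 ± 87.1 CPM). The markers Des (300.2 and 333 CPM), Notch3 (81.0 and 99.03 CPM), Cspg4 (35.3 and 39.6 CPM) and Higd1b (1.45 and 2.36 CPM) had higher means in 5E1. Rgs5 (99.2 and 85.6 CPM) had a lower mean, and none of these markers was called. These markers are named with their values known, and their part in the falls was not tested. Among TGF-beta ligand, receptor and feedback genes, Tgfb3, a ligand gene, fell (-0.31, adjusted p 0.0442), and 8 of the 14 alternatives did not call it, among them those without any 1 IgG library, 5E1 replicate 2 or 5E1 replicate 3.

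**Figure D5:**
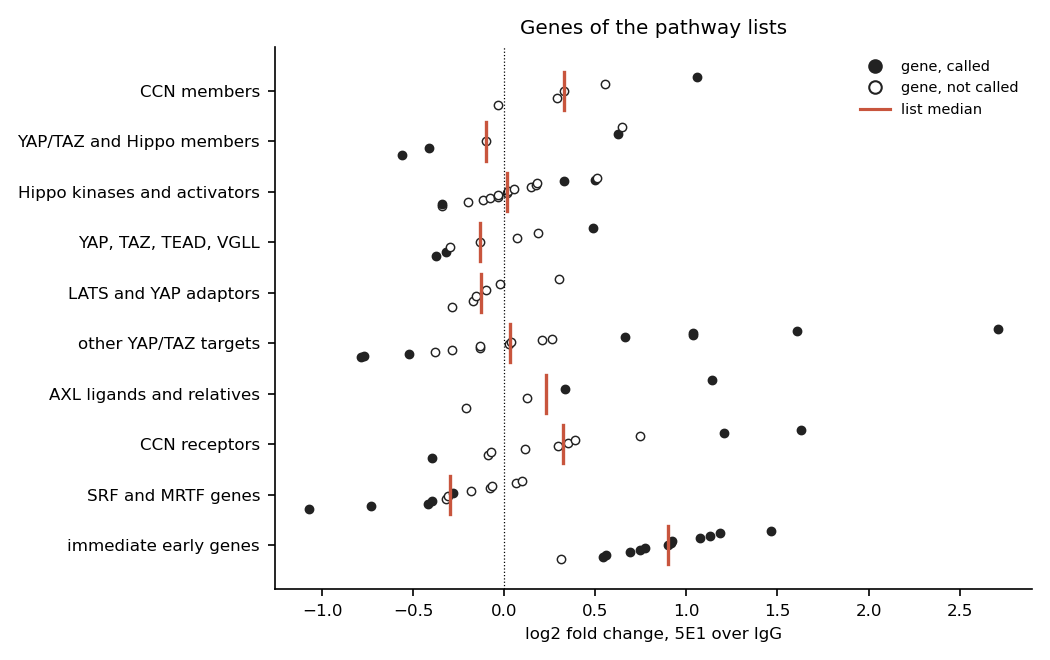
Log2 fold change, 5E1 over IgG, of each tested gene in the 2 member groups and 8 related lists, with called genes filled and the list median as a vertical bar. Immediate early genes lie to the right of 0, the called SRF and MRTF genes lie to the left, and the other lists spread to both sides.

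For each member, the genes with the most similar values over the 6 libraries were taken from 10452 named genes of at least 5 CPM. The measure was the root mean square (RMS) difference of log2(CPM + 0.5), each gene centred on its own mean. Ctgf lay closest to Dennd5b (RMS difference 0.024), Tatdn2 (0.033) and Pcbp2 (0.033). Cyr61 lay closest to Tle6 (0.038), Jazf1 (0.048) and Bambi (0.068), and Nov to Stxbp6 (0.090), Fam124a (0.098) and Khk (0.106). For Axl the closest were Gpr155 (0.045), Col5a2 (0.054) and Pi15 (0.058), for Wisp2 they were Fxyd1 (0.028), Tob2 (0.036) and Grasp (0.037), and for Ankrd1 Dram1 (0.075), Slc25a38 (0.093) and Lurap1 (0.100). Ajuba lay closest to Ube2d1 (0.036), Coro1c (0.046) and Tmpo (0.047), Tead1 to Spin1 (0.030), Gtf2ird1 (0.035) and Metap2 (0.037), Lats2 to Atf2 (0.021), Alg10b (0.033) and Lsm14a (0.034), and Wisp1 to Atp6v0e (0.026), Pdlim5 (0.029) and Bloc1s6 (0.031). No member was among the 3 closest genes of another. With only 3 taken from 10452 genes, that does not show whether members vary together. Ankrd1, with means of 2.68 CPM in IgG and 4.15 CPM in 5E1, was below the 5 CPM limit and could not be drawn.

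Gene counts summed to 16958433 to 34318583 reads per library. The fewest were in IgG replicate 2, which also had the largest unaligned share (42.9%). The hedgehog targets Ptch1 (-2.19), Hhip (-2.37) and Gli1 (-1.12) fell in 5E1. The 6 markers of the sorted mesenchyme summed to 44348 to 62419 CPM in IgG and 56299 to 101931 CPM in 5E1, and 2 of them rose (Col3a1 and Dcn). Summed markers of other cells, in IgG and in 5E1, were 109 to 133 and 119.7 to 272 CPM for endothelium, 171 to 186 and 184 to 443 CPM for epithelium, and 47.4 to 88.6 and 127 to 248 CPM for mesothelium. They were 2577 to 3732 and 3703 to 4906 CPM for adventitial fibroblasts and 57.9 to 93.7 and 7.77 to 40.9 CPM for cartilage. Adventitial markers, which also hold Dcn, rose in 5 and fell in 1 of 8, and cartilage markers fell in 3 of 4 tested, Lect1 being listed at 0 in every 5E1 library. Increases were called for 2 of 6 mesothelial, 2 of 8 epithelial and 1 of 8 endothelial markers, and no fall. Beside all these marker counts, 12.1% of all genes tested rose and 11.1% fell. The part of any of these cells in the members' values was not tested.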

How the data were processed

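RNA from sorted EGFP-positive lung cells was sequenced as stranded poly(A) libraries, per the labels' protocols. The authors deposited raw read counts per gene symbol for each of the 6 libraries. The submitters' processing notes name the mm10 build, HTSeq 0.6.0 and STAR 2.5.0c among their tools, without saying what each did. Which annotation and strand setting they used is not given here, so reads of overlapping genes may be mixed or missing. The 5 summary lines of each file were left out. They held 20.4% to 42.9% (unaligned), 5.27% to 6.26% (not unique), 4.60% to 7.15% (no gene) and 1.94% to 2.66% (ambiguous) of a library.

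Genes were kept with filterByExpr (minimum count 10, minimum total 15), scaled by TMM and fitted with edgeR 4.0.16 in R 4.3.3 (robust glmQLFit, glmQLFTest, group as the only term, two-sided). Log2 fold changes use a prior count of 0.125, and SE and 95% intervals come from the unshrunken coefficient. The fit was tested on simulated data. The 14 alternatives were DESeq2 1.42.0, limma-voom (limma 3.58.1), other scalings (RLE, library size alone) and filters, no robust estimation, a replicate block and each library left out. Members and lists were chosen with earlier results of these data known. The members, the called genes of each list with the smallest p (up to 4), the AXL and hedgehog lists and the 3 closest genes of each member are named, except items not reported here. The same rule's most abundant markers of leukocytes and of pericytes and smooth muscle are given with their levels. For endothelium, epithelium, mesothelium, adventitial fibroblasts and cartilage, levels are given only as sums. Positions and exon lengths are from GENCODE M21 (GRCm38), by symbol or newer RefSeq symbol.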

Additional observations from a re-analysis of the deposited data

How the results depend on the processing

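Nov, Axl and Ajuba passed in all 14 alternatives. Over all genes, 1966 were higher and 1791 lower, against 3274 lower with library size alone, 1221 to 1885 higher and 1073 to 1819 lower with 1 library left out, and 1720 higher and 1500 lower with a replicate block. The 2 members that rose became 4 with the filter at 5 CPM in 3 libraries (Ctgf and Wisp2 added). With 1 library left out, 2 or 3 members rose and 1 or 2 fell. The log2 fold change of Wisp1 ran from -0.0798 to 0.0179 with 1 library left out (0.0077 without 5E1 replicate 3), and the cause of its change of sign was not tested. With the replicate block 2 members rose and 2 fell, neither Frmd6 nor Fat4 was called, and 2 in place of 5 SRF and MRTF genes fell. Deviations of same-numbered libraries from their group means had correlations of -0.11, -0.04 and -0.09 for numbers 1 to 3. Whether these libraries share a litter or a day is not stated in the labels. The correlations cannot settle it, since other differences between libraries could hide a small shared effect. Depth limits Ankrd1 and Wisp2 most, and with the filter at 5 CPM Ankrd1 was not tested. Groups of 3 are too small for a test of outlying libraries.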
